A study of Homo sapiens with 8 samples.

Results

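FOXJ1 and 47 genes for parts of the motile cilium, 48 of the 27936 genes in the count tables, were followed in RNA-seq libraries of TIP60 knock-out (KO) and control HEK293 cells. HEK293 is an established line of immortalised human embryonic kidney cells. FOXJ1 was chosen on its measured values in this comparison, where it stood far higher in KO than in control libraries. The other 47 were listed by their known role in the cilium with that rise already known, to see whether they rose with it. TIP60, encoded by KAT5, is a lysine acetyltransferase of a chromatin complex. The 4 KO libraries carried the genotype label HEKg1/C9, 2 of them with sgRNA1 and 2 with sgRNA2, and the 4 control libraries carried the label HEKg1, again 2 with sgRNA1 and 2 with sgRNA2. All 8 samples received doxycycline at 1 µg/ml for 3 days to induce the guide RNA. The component C9 was not explained, nor what the control guides target, nor whether a line was 1 clone.

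Motile cilia beat because dynein arms, ATP-driven motors on the outer microtubule doublets of the axoneme, slide the doublets past each other, while radial spokes and a central pair of microtubules coordinate the stroke. FOXJ1, a forkhead transcription factor, is the main regulator of the genes that build this axoneme in airway, ependymal and oviduct cells, and the RFX factors bind many of the same promoters. Cells with many cilia first use GMNC and MCIDAS, coregulators that act with E2F factors, to start centriole amplification and to switch on FOXJ1. HEK293 cells are not known as motile ciliated cells, although they can grow a primary cilium, the immotile sensory form.

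Total counts ran from 3723992 to 18841774 per library, the smallest being control sgRNA1 replicate 2. KAT5 transcripts stood at 18.6, 18.3, 20.2 and 18.0 CPM in KO libraries, against 48.1, 45.5, 44.5 and 49.0 CPM in control libraries. CPM are counts scaled to a common library size (TMM), and values of 4 libraries are always given in the order sgRNA1 replicates 1 and 2, then sgRNA2 replicates 1 and 2. KAT5 mRNA was therefore lower in all 4 KO libraries but present in each. Of 8 genes listed as HEK293 markers, 7 had counts in every library, and LHX1 had few counts in both arms. Their summed level was 14190 to 15400 CPM in KO and 9269 to 11050 CPM in control libraries. A gene was called when its adjusted p was under 0.05 in edgeR's quasi-likelihood test over all 14455 genes with enough counts. These p-values measure only the spread between libraries, as replicates are not stated to come from separate cultures.

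FOXJ1 mRNA was close to absent in control cells and present at a low level in KO cells. FOXJ1 (gene ID 2302, chromosome 17, 76136333 to 76141245, GRCh38.p14) had 71, 49, 87 and 47 counts in KO libraries, against 1, 0, 1 and 0 counts in control libraries. Every KO library lay above every control library, with each guide number. The mean level was 3.86 ± 0.623 CPM (SD, n = 4) in KO and 0.0374 ± 0.0435 CPM in control libraries. The CPM ratio was 84.0 with an exact 95% counting interval of 23.0 to 697, which covers counting error only. Fitted log2 fold changes ran from 5.42 by limma-voom to 6.98 after thinning all libraries to the smallest, with 6.13 by edgeR. Per length this was 1.46 RPKM (CPM per kilobase of gene length) in KO cells and 0.0142 RPKM in control cells. No test is given for FOXJ1, because these values chose it. In bulk RNA, more cells with a transcript and more transcript per cell cannot be told apart.

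**Figure D1:**
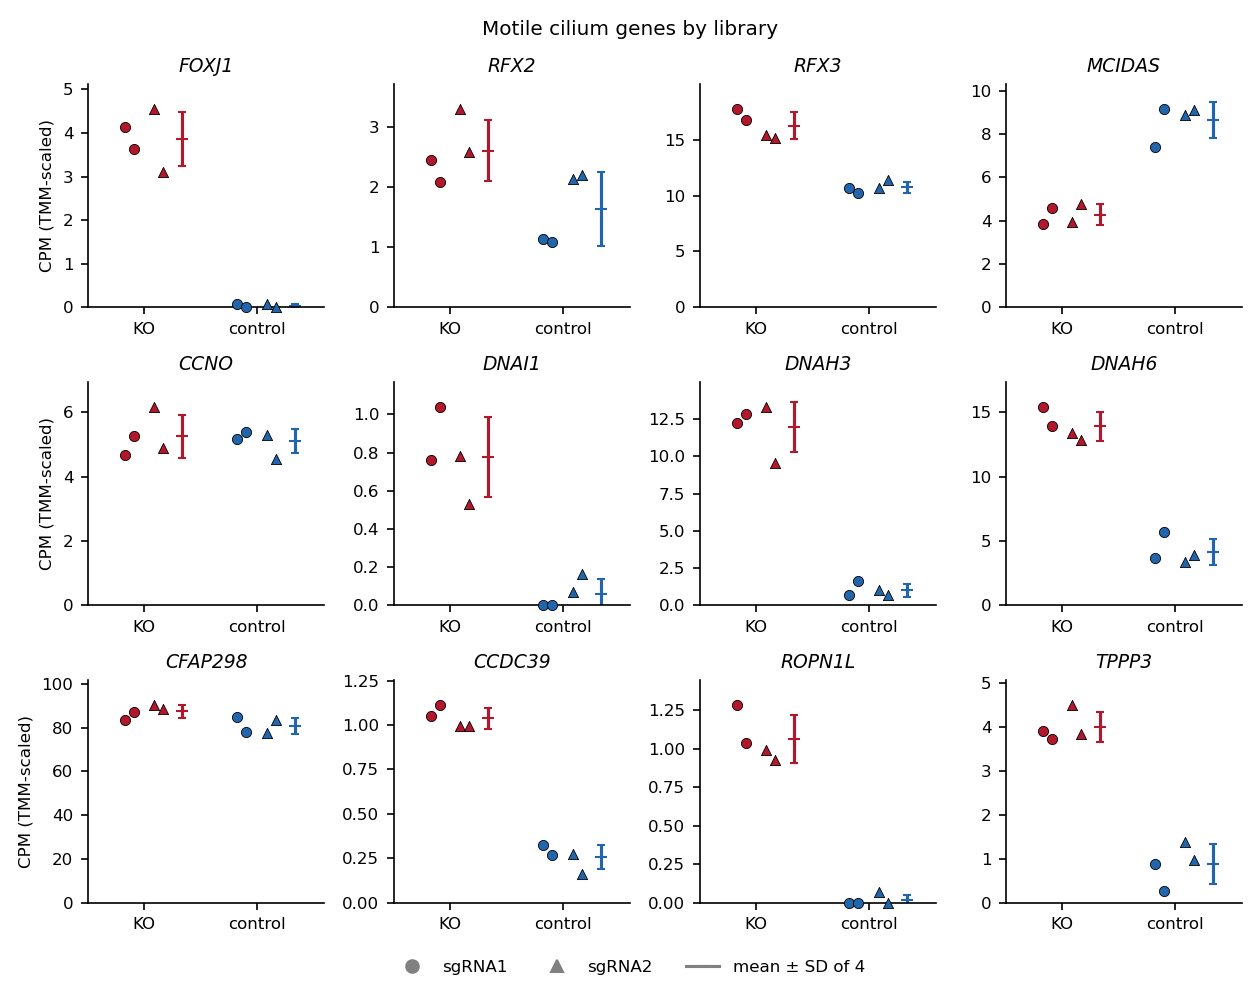
CPM (TMM-scaled) of 12 motile cilium genes in the 8 libraries, KO left and control right, circles for sgRNA1, triangles for sgRNA2, bars for the mean ± SD of 4. FOXJ1, RFX3, DNAI1, DNAH3, DNAH6, CCDC39, ROPN1L and TPPP3 stood higher in all 4 KO libraries, MCIDAS stood lower in all 4, and the arms overlapped for RFX2, CCNO and CFAP298.

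The members other than FOXJ1, regulators and assembly factors included, moved mostly upward. Of the 47 other members, 34 had enough counts for the fit. Of these 34, 23 were called higher and 4 lower in KO, with 31.8% of all tested genes called higher and 31.2% called lower. The 4 called lower were MCIDAS, DNAAF2, DNAAF3 and GAS8. At least 2-fold higher and called were 15 of the 34, against 8.38% of all tested genes, and none was at least 2-fold lower. The median log2 fold change of the 34 was 0.72, against 0.0069 over all tested genes. In 21 of the 34 every KO library lay above every control library, which held for 27.3% of all genes, and in 3 every KO library lay below, which held for 25.6%.

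Part of these counts follows from the filter, because a gene that passed it through the KO libraries alone was more likely to be higher in KO. Such were 9 of the 34 members, DNAI1, DNAH7, DNAH12, CCDC39, RSPH1, ROPN1L, SPAG17, AK7 and AK8, and all 9 were called higher. Of all 998 tested genes that did not pass in each arm, 600 were called higher. The median log2 fold change was 1.96 for the 9 members and 1.28 for these 998 genes. The 998 were not split by arm and can include genes that passed through the control libraries alone. They are therefore not a matched background for the 9 members. Of the 25 that passed in each arm by itself, an alternative added after seeing the data, 14 were called higher and 4 lower, where 29.7% of all genes passing in the same way were called higher and 33.2% lower. Called and at least 2-fold higher were 7 of these 25, against 4.77% of such genes, since 8 of the 15 named above were among the 9. In 13 of the 25 every KO library lay above every control library, against 25.6% of such genes. Their median log2 fold change was 0.57, against -0.02 for all such genes. Thinned to the smallest library, 10 of 22 tested members were called higher and 2 lower, where 3277 of 12550 genes were higher and 3360 lower. Over the whole table the share of calls also differed by abundance. Among genes under 1 CPM, 40.8% were called higher and 3.57% lower, and 8 of 9 members were higher. From 1 to 10 CPM, 36.5% of all genes were higher and 16.5% lower, against 11 higher and 1 lower of 15 members. At 10 CPM and more, 29.3% were higher and 39.2% lower, against 4 higher and 3 lower of 10 members.

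**Figure D2:**
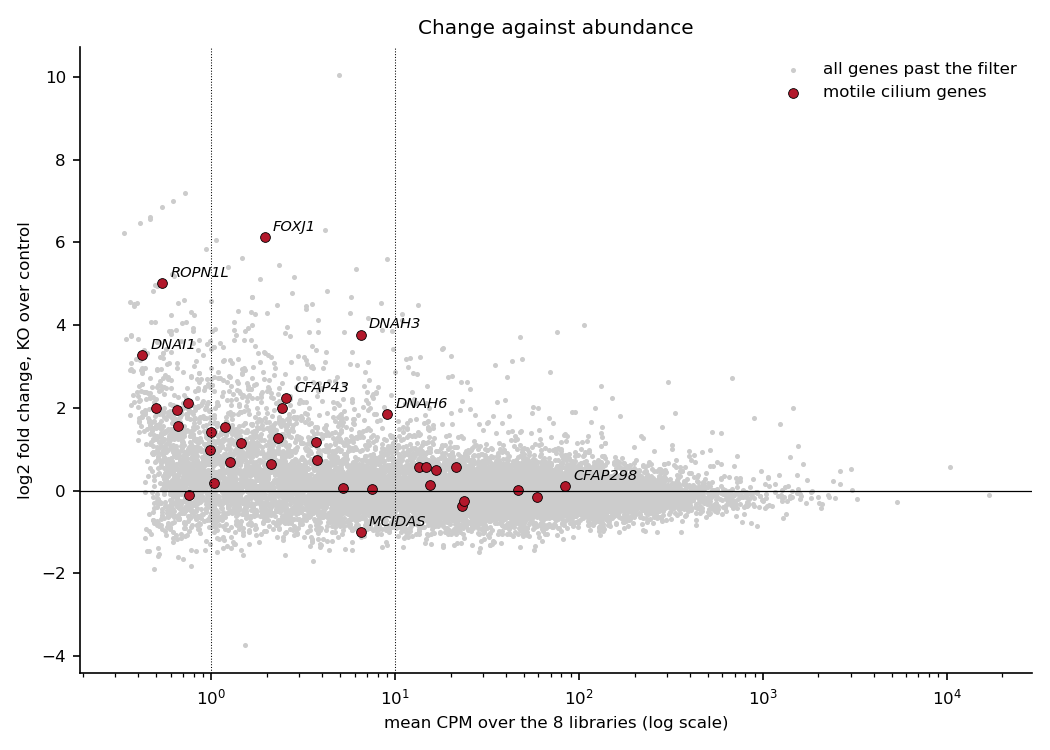
Log2 fold change of KO over control against the mean CPM over the 8 libraries (log scale), for all tested genes in grey and the motile cilium genes in red, with dotted lines at 1 and 10 CPM. The large rises of members lay under 10 CPM, and above it no member changed 2-fold.

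Libraries of KO cells held transcripts of more members at equal depth. Thinned to the total of the smallest library, 41, 43, 42 and 41 of the 47 members other than FOXJ1 had at least 1 count in KO libraries, against 35, 31, 34 and 36 in control libraries. The arms did not overlap. All genes moved the same way in this measure, with 16490 to 16570 genes with a count in KO and 15366 to 15599 in control libraries. Without thinning, 45 to 47 of the 47 had a count in KO and 31 to 43 in control libraries. The summed level of the 47 members other than FOXJ1 was 411 to 417 CPM in KO and 350 to 359 CPM in control libraries.

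Among the regulators, the RFX genes were higher, MCIDAS was lower and GMNC appeared in a few counts. RFX3, which binds the X-box of ciliary promoters, had 17.7, 16.8, 15.5 and 15.2 CPM in KO libraries, against 10.7, 10.2, 10.7 and 11.4 CPM in control libraries. The arms did not overlap, and RFX3 was called higher (log2 fold change 0.58 ± 0.089, SE, adjusted p = 1.0e-05). RFX2, its close relative, had 2.45, 2.08, 3.29 and 2.58 CPM in KO libraries, against 1.13, 1.08, 2.14 and 2.20 CPM in control libraries. The arms overlapped in the sgRNA2 controls. RFX2 was called higher over all libraries (0.64 ± 0.21, adjusted p = 0.0126), with 1.02 ± 0.36 for sgRNA1 (adjusted p = 0.0261) and 0.45 ± 0.25 for sgRNA2 (adjusted p = 0.142). The RFX2 call was also lost without KO sgRNA2 replicate 1 (adjusted p = 0.0567) and without control sgRNA1 replicate 1 (adjusted p = 0.0553), and thinning ended the calls of RFX2 (0.78, adjusted p = 0.0787) and RFX3 (0.35, adjusted p = 0.0535).

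Of MCIDAS and GMNC, which act above FOXJ1 in multiciliated cells, MCIDAS fell and GMNC had nearly all of its few counts in KO libraries. MCIDAS (gene ID 345643, chromosome 5, 55219564 to 55227315) had 3.85, 4.60, 3.92 and 4.76 CPM in KO libraries, against 7.43, 9.15, 8.90 and 9.11 CPM in control libraries. All 4 KO libraries lay below all control libraries. It was called lower (-0.999 ± 0.13, adjusted p = 1.21e-06), with -0.91 ± 0.20 for sgRNA1 and -1.06 ± 0.17 for sgRNA2. GMNC had too few counts for the fit, with 10, 6, 3 and 3 counts in KO libraries, against 0, 0, 1 and 0 counts in control libraries, a CPM ratio of 14.6 (2.35 to 601). CCNO, a cyclin needed for centriole amplification, lies beside MCIDAS (chromosome 5, 55231152 to 55233608) and did not pass the test. CCNO had 4.67, 5.27, 6.17 and 4.90 CPM in KO libraries, against 5.17, 5.38, 5.31 and 4.56 CPM in control libraries, and the arms overlapped (0.07 ± 0.14, adjusted p = 0.705). CDC20B, the third gene of that locus (chromosome 5, 55112971 to 55173177), is no member and was named after its values were seen. It had 72 KO counts and 13 control counts and was called higher (1.82 ± 0.40, adjusted p = 5.15e-04), beside 31.8% of all tested genes. With so few control counts CDC20B may have passed the filter through the KO libraries alone, where a higher call is more likely.

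Of 6 outer dynein arm genes 3 could be tested, and all 3 rose, beside 31.8% of all tested genes. DNAI1 passed the filter through the KO libraries alone, and DNAL1 and DNAH11 passed in each arm. DNAI1, an intermediate chain that anchors the arm, had 13, 14, 15 and 8 counts in KO libraries, against 0, 0, 1 and 2 counts in control libraries. Its arms did not overlap (3.28 ± 0.62, adjusted p = 1.05e-04, CPM ratio 11.0, interval 3.56 to 55.2). With sgRNA1 no control library had a count, so the fitted change of 6.59 there depends on the prior count of the fit, and with sgRNA2 the change was 2.49. Without control sgRNA2 replicate 2 it was 4.23. DNAL1, a light chain of the motor, was the most abundant of the group, with 25.7 ± 1.15 CPM in KO and 17.2 ± 1.46 CPM in control libraries (SD, n = 4, 0.58 ± 0.078, adjusted p = 2.13e-06). The heavy chain DNAH11 had 4.55 ± 0.772 CPM in KO and 2.92 ± 0.664 CPM in control libraries (0.75 ± 0.18, adjusted p = 0.00132). The DNAH11 call was not made within sgRNA1 (0.48, adjusted p = 0.165) or after thinning (0.45, adjusted p = 0.216).

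The main outer arm heavy chains of airway cilia were rare in both arms. DNAH5 had 29 counts in KO and 18 in control libraries, a CPM ratio of 1.07 (0.572 to 2.04), so no difference was detectable at this depth. DNAH9 had 6, 5, 4 and 4 counts in KO libraries, against 1, 0, 0 and 0 counts in control libraries, a ratio of 12.6 (2.00 to 522). DNAI2, the partner chain of DNAI1, had 4, 1, 0 and 0 counts in KO libraries and none in control libraries. All 5 counts of DNAI2 lay in the sgRNA1 libraries. Without control sgRNA2 replicate 1 the DNAH9 ratio was 8.32.

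Inner dynein arm heavy chains, which shape the bend of the cilium, included clear rises of DNAH3 and DNAH6. Of 7, 6 were tested and 5 were called higher, beside 31.8% of all tested genes. Of the 4 that passed the filter in each arm 3 were called higher, beside 29.7% of such genes. DNAH3 (gene ID 55567, chromosome 16, 20933111 to 21159459) had 12.3, 12.8, 13.3 and 9.53 CPM in KO libraries, against 0.646, 1.62, 1.03 and 0.651 CPM in control libraries. The lowest KO library stood far above the highest control library (3.77 ± 0.20, adjusted p = 3.28e-12), and the change was 3.83 with sgRNA1 and 3.74 with sgRNA2. DNAH6 had 15.4, 14.0, 13.4 and 12.8 CPM in KO libraries, against 3.63, 5.65, 3.31 and 3.90 CPM in control libraries. It too was higher in all 4 KO libraries (1.85 ± 0.12, adjusted p = 6.58e-11).

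The other inner arm chains rose by less or were rarer. DNAH1 had 17.4 ± 1.26 CPM in KO and 12.1 ± 1.96 CPM in control libraries (0.57 ± 0.10, adjusted p = 6.54e-05). DNAH7 had 114 counts in KO and 25 in control libraries (1.55 ± 0.31, adjusted p = 2.25e-04), and its change was 2.43 after thinning. DNAH12 had 67 counts in KO and 15 in control libraries (1.56 ± 0.39, adjusted p = 0.00165), with 2.44 for sgRNA1 and 1.18 for sgRNA2. DNAH2 and DNAH10 are heavy chains of the double-headed inner arm. DNAH2, named after its values were seen, did not pass the test, with a log2 fold change of 0.19 ± 0.30 (adjusted p = 0.588). DNAH10 had 9 counts in KO and 2 in control libraries, a ratio of 2.98 (0.616 to 28.3), or 1.97 without control sgRNA2 replicate 1.

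Per length, the order of the heavy chain transcripts differed between the arms. In KO cells mean levels were 1.31 RPKM for DNAH1, 1.01 RPKM for DNAH6 and 0.842 RPKM for DNAH3. The neighbours DNAH6 and DNAH3 overlapped over libraries, with 0.935 to 1.12 RPKM and 0.669 to 0.936 RPKM, while DNAH1, at 1.22 to 1.44 RPKM, stood above both. In control cells DNAH1 had 0.908 RPKM, DNAH6 0.300 RPKM, DNAH11 0.210 RPKM and DNAH3 0.0693 RPKM. There DNAH6 and DNAH11 overlapped, with 0.241 to 0.412 RPKM and 0.158 to 0.271 RPKM, and DNAH3, at 0.0454 to 0.113 RPKM, lay below both. Of the other heavy chains, DNAH11 had 0.328 RPKM in KO cells and DNAH7 0.126 RPKM, and DNAH2, DNAH12, DNAH5, DNAH9 and DNAH10 lay lower still in KO cells.

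Dynein arm assembly factors, cytoplasmic proteins that fold the motors before they enter the cilium, had 4 members that could be tested. None of these 4 was called higher and 2 were called lower. All 4 passed the filter in each arm, where 29.7% of all such genes were called higher and 33.2% lower. CFAP298, the most abundant member of all 48 by CPM, had 83.4, 87.1, 90.3 and 88.5 CPM in KO libraries, against 84.8, 78.1, 77.5 and 83.2 CPM in control libraries. The arms overlapped (0.11 ± 0.048, adjusted p = 0.0611), and 3 alternatives called it higher, with an adjusted p of 0.0122 without control sgRNA1 replicate 1. DNAAF3 had 56.6 ± 2.24 CPM in KO and 62.0 ± 3.44 CPM in control libraries (-0.15 ± 0.052, adjusted p = 0.0163). That call was lost within sgRNA1 (adjusted p = 0.388) and without any of KO sgRNA2 replicate 2 (0.0714), control sgRNA1 replicate 1 (0.0510) or control sgRNA2 replicate 1 (0.0908). DNAAF2, named after its values were seen, had 19.9 ± 1.24 CPM in KO and 25.9 ± 1.57 CPM in control libraries (-0.37 ± 0.072, adjusted p = 1.37e-04). DNAAF1 was too rare for the fit. It had 11, 5, 12 and 7 counts in KO libraries, against 0, 0, 2 and 0 counts in control libraries, a ratio of 11.6 (2.97 to 99.3).

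Both molecular ruler genes were called higher and a regulatory complex member was called lower. Of 3 genes of this group tested, 2 were higher and 1 lower, beside 31.8% and 31.2% of all tested genes. CCDC39 passed the filter through the KO libraries alone. Of the pair that passed in each arm, CCDC40 was higher and GAS8 lower, beside 29.7% and 33.2% of such genes. CCDC39 and CCDC40 form the ruler that sets the axonemal repeat. CCDC39 had 1.05, 1.11, 0.993 and 0.993 CPM in KO libraries, against 0.323, 0.269, 0.276 and 0.163 CPM in control libraries. The arms stood apart (1.96 ± 0.38, adjusted p = 1.64e-04). CCDC40 had 5.07 ± 0.595 CPM in KO and 2.38 ± 0.452 CPM in control libraries (1.19 ± 0.17, adjusted p = 4.69e-06). The nexin-dynein regulatory complex links neighbouring doublets. Its member GAS8 had 21.6 ± 1.05 CPM in KO and 25.9 ± 1.89 CPM in control libraries (-0.24 ± 0.072, adjusted p = 0.00689), without a call within sgRNA2 (-0.14, adjusted p = 0.227) or after thinning (-0.14, adjusted p = 0.353). CCDC65 of the same complex had 32 counts in KO and 6 in control libraries, a ratio of 3.53 (1.45 to 10.3). DRC1 had 15 counts in KO and 3 in control libraries, a ratio of 3.31 (0.936 to 17.8), or 6.57 without control sgRNA2 replicate 1.

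Of 4 radial spoke genes tested, 3 were called higher, beside 31.8% of all tested genes. Of these 3, ROPN1L and RSPH1 passed the filter through the KO libraries alone. Of the pair that passed in each arm, NME5 was called higher and RSPH4A was not called. ROPN1L (gene ID 83853, chromosome 5, 10441879 to 10482807), for a protein of the spoke stalk, had 22, 14, 19 and 14 counts in KO libraries, against 0, 0, 1 and 0 counts in control libraries. It was called higher (5.02 ± 0.66, adjusted p = 1.21e-06), and its CPM ratio was 45.6 (7.92 to 1828). With a single control count the size of this change is uncertain. It was 3.98 by limma-voom, 6.99 with sgRNA1 and 4.38 with sgRNA2, and 6.86 without control sgRNA2 replicate 1, which held that count. RSPH1, of the spoke head, had 54 counts in KO and 9 in control libraries (2.00 ± 0.47, adjusted p = 9.15e-04), with 3.41 for sgRNA1 and 1.58 for sgRNA2. NME5 had 1.96 ± 0.491 CPM in KO and 0.928 ± 0.166 CPM in control libraries (1.15 ± 0.28, adjusted p = 0.00140), without a call within sgRNA1 (0.93, adjusted p = 0.0884). The most abundant spoke gene of the list did not pass the test. RSPH4A, also of the spoke head, had 7.68 ± 0.510 CPM in KO and 7.28 ± 0.834 CPM in control libraries (0.05 ± 0.11, adjusted p = 0.745). RSPH9, the partner of RSPH4A, had 6 counts in each KO library, against 0, 0, 2 and 1 counts in control libraries. Its ratio was 5.29 (1.61 to 27.5), and 10.5 without control sgRNA2 replicate 1.

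Of 3 central pair genes tested, SPAG17 was called higher, beside 31.8% of all tested genes. It passed the filter through the KO libraries alone. SPAG17 had 1.05, 1.34, 1.36 and 1.12 CPM in KO libraries, against 0.0807, 0.269, 0.552 and 0.163 CPM in control libraries, with a log2 fold change of 2.12 ± 0.42 (adjusted p = 1.69e-04). The change was 3.15 with sgRNA1 and 1.73 with sgRNA2, and 3.02 without control sgRNA2 replicate 1. Neither central pair gene that passed the filter in each arm was called. STK36, a kinase needed for the central pair in mouse cilia, had 46.6 ± 1.20 CPM in KO and 46.9 ± 4.91 CPM in control libraries (0.02 ± 0.061, adjusted p = 0.744). SPAG16 had 16.2 ± 2.69 CPM in KO and 14.8 ± 1.09 CPM in control libraries (0.13 ± 0.11, adjusted p = 0.298). SPAG6 and SPAG16 are proteins of the central apparatus. SPAG6 had 25 counts in KO and 5 in control libraries, a ratio of 3.31 (1.24 to 11.1), or 5.90 without control sgRNA2 replicate 2. HYDIN, a very large protein of the central apparatus, had 16 counts in KO and 2 in control libraries, a ratio of 5.29 (1.24 to 47.4). Its near-identical copy HYDIN2 was listed at 0 in all libraries, and reads shared by the copies cannot be assigned with certainty.

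Proteins inside the doublet microtubules and other axonemal proteins rose in all 7 tested cases, beside 31.8% of all tested genes. AK7 and AK8 passed the filter through the KO libraries alone, and the other 5 passed in each arm. MNS1 and CFAP53 are inner proteins also needed for left-right asymmetry. MNS1 had 3.31 ± 0.542 CPM in KO and 1.27 ± 0.529 CPM in control libraries (1.26 ± 0.22, adjusted p = 4.41e-05). CFAP53 had 1.61 ± 0.279 CPM in KO and 0.900 ± 0.244 CPM in control libraries (0.69 ± 0.27, adjusted p = 0.0291). The CFAP53 call was lost by DESeq2 (adjusted p = 0.0897), within sgRNA2 (0.42, adjusted p = 0.327) and without any of KO sgRNA1 replicate 1 (0.0753), KO sgRNA1 replicate 2 (0.0705), KO sgRNA2 replicate 1 (0.0706), control sgRNA1 replicate 1 (0.103) or control sgRNA1 replicate 2 (0.0655). The tektins are filaments of the doublet wall. TEKT2 had 26 counts in KO and 15 in control libraries (ratio 1.15, 0.585 to 2.33), and TEKT1 had 2 counts in KO and 1 in control libraries.

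CFAP43 and CFAP44 tether an inner dynein arm in the ciliate Tetrahymena and the alga Chlamydomonas. CFAP43 had 4.50, 3.56, 4.81 and 4.04 CPM in KO libraries, against 0.727, 0.538, 0.828 and 1.30 CPM in control libraries. All KO libraries lay above all control libraries (2.24 ± 0.23, adjusted p = 4.13e-08). CFAP44 had 19.7 ± 0.547 CPM in KO and 13.8 ± 0.732 CPM in control libraries (0.51 ± 0.079, adjusted p = 1.06e-05). TPPP3, a tubulin-binding protein enriched in ciliated cells, had 3.91, 3.71, 4.49 and 3.84 CPM in KO libraries, against 0.888, 0.269, 1.38 and 0.976 CPM in control libraries. Its arms did not overlap either (1.99 ± 0.23, adjusted p = 1.93e-07), and the change was 2.58 after thinning. AK8, an adenylate kinase that handles nucleotides in the axoneme, had 88 counts in KO and 21 in control libraries (1.42 ± 0.35, adjusted p = 0.00124). Control sgRNA1 replicate 2 reached 1.35 CPM of AK8, within the KO range of 1.32 to 1.41 CPM, and within sgRNA1 the change was 0.82 (adjusted p = 0.155). AK7, named after its values were seen, changed by 0.99 ± 0.30 (adjusted p = 0.00700).

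**Figure D3:**
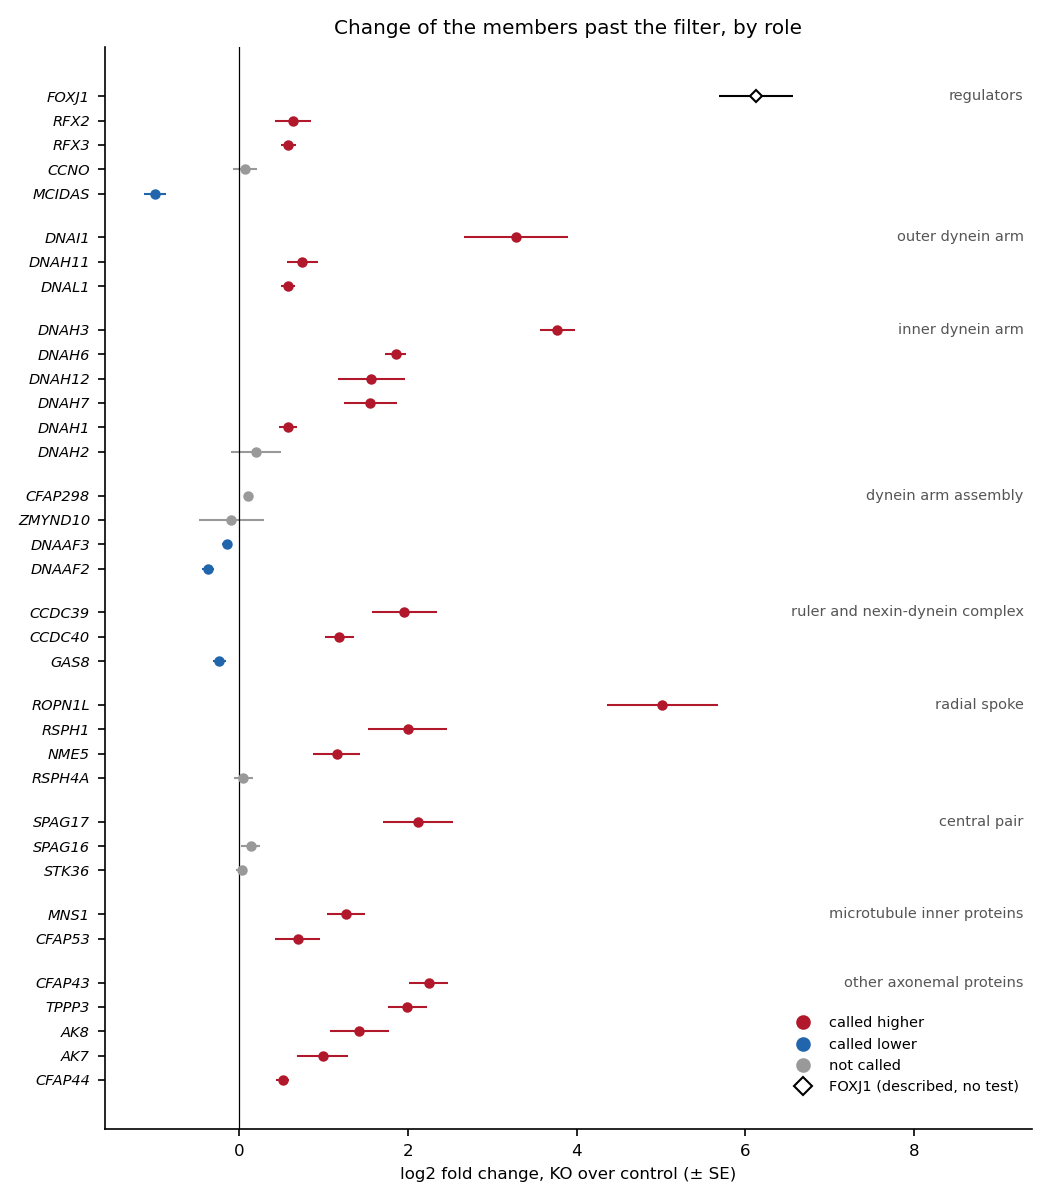
Log2 fold change of KO over control (± SE) of the 35 members that passed the filter, ordered by role, with red for called higher, blue for called lower, grey for not called and an open diamond for FOXJ1, which was not tested. Every called dynein arm, spoke and central pair gene lies to the right of 0, and assembly factors lie around it. Of these called genes, DNAI1, DNAH7, DNAH12, RSPH1, ROPN1L and SPAG17 passed the filter through the KO libraries alone. The ruler and nexin-dynein group has genes on both sides, with GAS8 called lower. Of all tested genes, 31.8% were called higher and 31.2% lower.

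Annotated exons of some members overlap other genes, and whether counting used strand is not stated. CCDC39 shares 79.8% of its exonic bases with a second annotated gene of the same name on its own strand. On the same strand, overlap reached 25.0% for CFAP44 and 23.9% for CFAP298. On the other strand it was 29.9% for GAS8, 27.2% for DNAAF3, 23.0% for RSPH9, 18.5% for MNS1, 18.4% for SPAG17 and 16.6% for DNAH10. Reads of these genes and their partners may not be separable.

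Of the 13 members with too few counts for the fit, a CPM ratio could be formed for 11. Its 95% counting interval lay above 1 for 7, GMNC, DNAH9, DNAAF1, CCDC65, RSPH9, SPAG6 and HYDIN. It included 1 for DNAH5, DNAH10, DRC1 and TEKT2. In 8 of the 11 every KO library lay above every control library. Among all 2170 genes that were too rare for the fit, had counts in both arms and had the same 11 to 47 counts in all, the interval lay above 1 for 23.8% and below 1 for 2.12%, and every KO library lay above every control library for 15.6%. The median ratio was 3.53 for the 11 members and 1.65 for these genes. DNAI2, with 5 KO counts and no control count, had a ratio of 1.10 against a floor of 3 counts over the 4 controls. That value leaves out the counting error of the KO counts, so it does not establish a rise. For TEKT1 no ratio was formed.

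**Figure D4:**
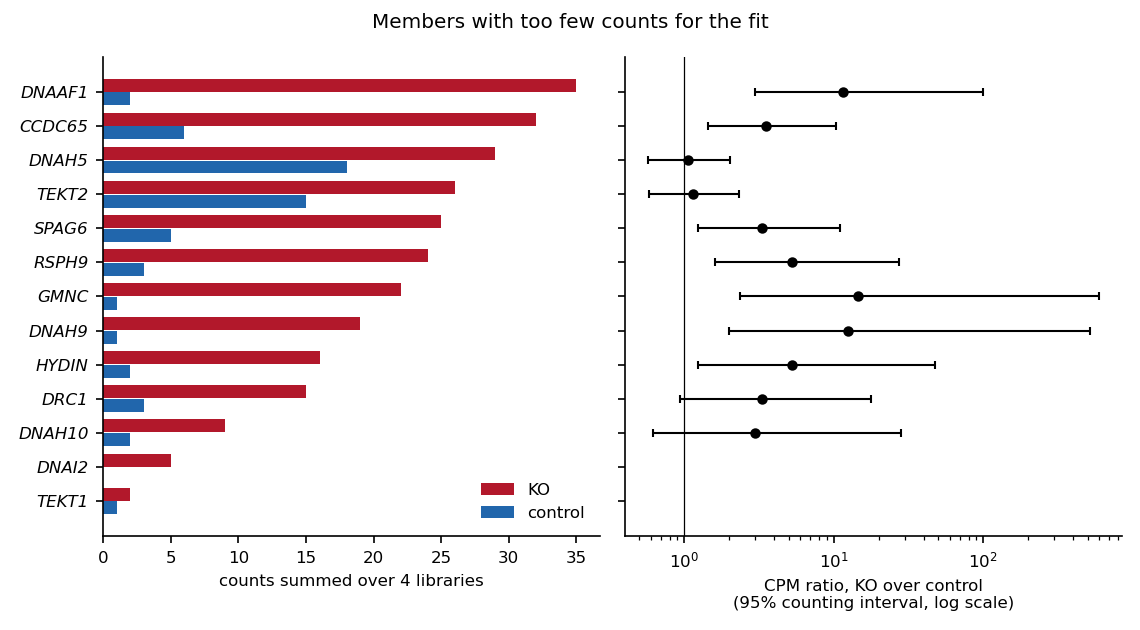
Left, counts summed over 4 libraries of the 13 members with too few counts for the fit, KO bars above control bars. Right, CPM ratio of KO over control with its exact 95% counting interval on a log axis, absent for DNAI2 and TEKT1, where intervals of 7 genes lie above 1.

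No member passed a test of a difference between the guide numbers. The difference of the KO effect between sgRNA1 and sgRNA2 was called by edgeR for 0 of the 34 members and for 0% of all genes. At an unadjusted p under 0.05 it was seen for 0 members and 638 of all genes. Between the control lines, sgRNA1 against sgRNA2, 0 of the 34 members were called, with 0.0277% of all genes called. At an unadjusted p under 0.05 this held for 1 member, RFX2, and for 1192 genes. RFX2 was lower in control sgRNA1 than in control sgRNA2 by 0.95 ± 0.37 on the log2 scale, with an adjusted p of 0.548.

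Promoter sequences are shown for the 5 called members with the largest changes that the RefSeq promoter table (GRCh38.p14) holds, as examples of genes that rose together. Each runs from 250 bases before to 50 bases after the start site, so its last 50 bases are transcribed. Capitals mark GTAAACA, a core that forkhead factors such as FOXJ1 bind, or GTTGCCA, part of the X-box that RFX factors bind, or their reverse complements TGTTTAC and TGGCAAC. ROPN1L lies at chr5:10441629-10441928 on the plus strand, DNAI1 at chr9:34458555-34458854 on the plus strand, CFAP43 at chr10:104232315-104232614 on the minus strand, SPAG17 at chr1:118185179-118185478 on the minus strand and CCDC39 at chr3:180679440-180679739 on the minus strand.
ROPN1L: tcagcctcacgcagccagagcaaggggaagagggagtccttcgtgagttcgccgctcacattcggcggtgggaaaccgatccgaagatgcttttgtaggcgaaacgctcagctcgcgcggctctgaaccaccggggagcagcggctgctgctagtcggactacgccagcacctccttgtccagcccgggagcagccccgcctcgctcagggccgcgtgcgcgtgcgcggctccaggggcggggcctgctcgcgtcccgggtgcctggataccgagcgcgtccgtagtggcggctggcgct
DNAI1: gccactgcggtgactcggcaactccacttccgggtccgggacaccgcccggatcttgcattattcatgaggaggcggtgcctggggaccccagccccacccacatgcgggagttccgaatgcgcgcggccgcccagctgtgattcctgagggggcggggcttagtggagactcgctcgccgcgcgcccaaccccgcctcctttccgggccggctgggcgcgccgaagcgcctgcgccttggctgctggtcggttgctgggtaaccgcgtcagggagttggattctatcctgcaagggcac
CFAP43: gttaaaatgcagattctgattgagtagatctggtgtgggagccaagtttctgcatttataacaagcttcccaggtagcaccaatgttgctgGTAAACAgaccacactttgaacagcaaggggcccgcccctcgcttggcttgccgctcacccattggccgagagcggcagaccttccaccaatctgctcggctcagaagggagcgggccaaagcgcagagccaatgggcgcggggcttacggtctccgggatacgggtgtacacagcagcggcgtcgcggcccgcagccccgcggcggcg
SPAG17: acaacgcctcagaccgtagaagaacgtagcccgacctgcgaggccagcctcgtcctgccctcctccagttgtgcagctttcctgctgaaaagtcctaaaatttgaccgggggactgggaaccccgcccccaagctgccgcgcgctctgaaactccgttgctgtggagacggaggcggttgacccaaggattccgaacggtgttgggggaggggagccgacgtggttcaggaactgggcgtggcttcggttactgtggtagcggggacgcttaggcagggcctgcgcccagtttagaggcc
CCDC39: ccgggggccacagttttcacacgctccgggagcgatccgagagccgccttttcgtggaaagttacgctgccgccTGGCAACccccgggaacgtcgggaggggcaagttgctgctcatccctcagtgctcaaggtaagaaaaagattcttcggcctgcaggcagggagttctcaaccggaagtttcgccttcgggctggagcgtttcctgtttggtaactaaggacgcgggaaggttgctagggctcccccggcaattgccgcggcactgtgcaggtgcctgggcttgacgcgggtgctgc

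In these 5 windows, CFAP43 held GTAAACA with its first base 159 bases before the start site, and CCDC39 held the reverse complement of GTTGCCA, 176 bases before it. Neither string was found in the windows of ROPN1L, DNAI1 and SPAG17, which says only that these letters are not there. Of the 48 members, 38 had an entry in the table. GTTGCCA on either strand was in 15 of the 38 windows, 39.5%, and in 4.98% of the windows of 27305 genes. It was in 5 of the 19 members called higher and in 10 of the 19 others. Of these others, DNAH10, DNAI2, DRC1, RSPH9 and TEKT1 had too few counts for the fit. CFAP298, DNAH2, RSPH4A and SPAG16 were not called, and MCIDAS was called lower. GTAAACA was in 5 of 38 members, 13.2%, and in 4.19% of all genes, with 2 among the 19 called higher and 3 among the 19 others. Of these 3, DNAH9 and TEKT1 had too few counts for the fit and SPAG16 was not called. By their letters the 2 strings cannot overlap. A match is a description of the letters and not a binding site.

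A wider list of 88 other motile cilium genes, drawn up with earlier results known, was also called higher in most cases. Of 51 tested, 41 were called higher and 1 lower, beside 31.8% and 31.2% of all tested genes, and 28 rose at least 2-fold, beside 8.38%. Their median log2 fold change was 1.22. Of the 51, 21 did not pass the filter in each arm by itself, and 17 of the 28 were among them. Of the 30 that did, 24 were higher, beside 29.7% of such genes, 1 was lower, beside 33.2%, and 11 were at least 2-fold higher, beside 4.77%. TUBB4B, the beta tubulin isotype of the axoneme, had 527 ± 16.3 CPM in KO and 268 ± 12.8 CPM in control libraries (0.97 ± 0.045, adjusted p = 3.09e-13). The spoke gene RSPH3 had 18.4 ± 0.637 CPM in KO and 7.17 ± 1.01 CPM in control libraries (1.32 ± 0.095, adjusted p = 2.39e-10). The outer arm heavy chain DNAH17, known from sperm tails, had 26.9, 33.8, 29.2 and 11.1 CPM in KO libraries, against 3.15, 5.65, 4.34 and 4.64 CPM in control libraries (2.53 ± 0.25, adjusted p = 3.15e-08). Its level in KO sgRNA2 replicate 2 was the lowest of the KO libraries and still above all controls. The assembly factor DNAAF5 was the 1 gene called lower (-0.14 ± 0.044, adjusted p = 0.00991).

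Of 24 genes of the multiciliation circuit tested, 9 were called higher and 11 lower, with a median of -0.22. The share called higher lay near the 31.8% of all tested genes, and 31.2% of all were called lower. Of the 21 that passed the filter in each arm, 7 were higher and 11 lower, beside 29.7% and 33.2% of such genes. The centriole proteins CEP63 (0.59 ± 0.077) and CEP164 (0.39 ± 0.056) and the MCIDAS antagonist GMNN (0.27 ± 0.045) were higher. The E2F partner TFDP1 (-0.53 ± 0.042), RFX5 (-0.43 ± 0.045) and the centriole kinase PLK4 (-0.41 ± 0.047) were lower. DEUP1, a core protein of the deuterosome on which multiciliated cells build centrioles, had 1 count in KO and 0 in control libraries. Genes of the primary cilium and of intraflagellar transport were called higher in 37 and lower in 12 of 65 tested, all of which passed the filter in each arm, with a median of 0.18. That is 56.9% called higher, close to the 14 of 25 motile cilium members, 56%, that were higher among those past the filter in each arm. The sizes differed, as 1 of the 65 and 7 of the 25 were called and at least 2-fold higher. The median log2 fold changes were 0.18 and 0.57. IFT70A, of the transport machinery (1.35 ± 0.098), TCTN1, of the transition zone (0.73 ± 0.061), and the kinesin adaptor KIFAP3 (0.49 ± 0.051) were higher. The ciliary adenylyl cyclase ADCY3 (-0.84 ± 0.044) and the Hedgehog pathway receptors SMO (-0.77 ± 0.060) and GPR161 (-0.94 ± 0.087) were lower.

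**Figure D5:**
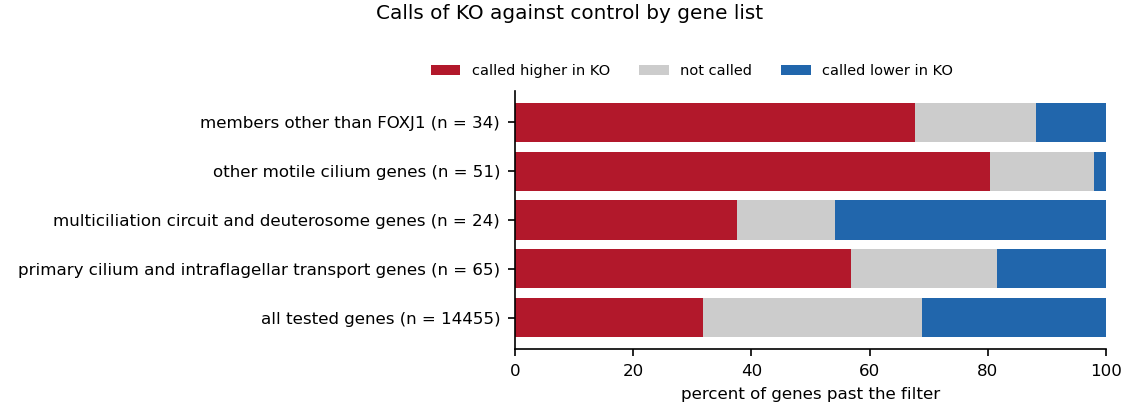
Share of genes past the filter called higher in KO (red), not called (grey) and called lower in KO (blue) for 4 gene lists and for all 14455 tested genes. Red covers 23 of 34 and 41 of 51 genes in the 2 motile cilium lists, where 9 and 21 genes did not pass the filter in each arm by itself, and 37 of 65 in the primary cilium list, where all did. Among genes past the filter in each arm the members' share, 56%, is no higher than that of the primary cilium list, 56.9%. Of these genes, 7 of 25 members and 1 of 65 primary cilium genes were called and at least 2-fold higher.

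Markers of other cells that hold motile cilia or could carry such transcripts were measured beside these lists. Of all tested genes, 31.8% were called higher and 31.2% lower. Of 25 spermatid and sperm genes, 9 were at 0 in all libraries, among them the protamine PRM2 and the transition proteins TNP1 and TNP2. The summed level of that list was 93.7 to 102 CPM in KO and 76.1 to 94.1 CPM in control libraries, and 3 of 7 tested were called higher, AKAP3 (1.62 ± 0.15), SPA17 (0.45 ± 0.099) and ODF2 (0.18 ± 0.055), and 1 lower, SPATA18 (-0.81 ± 0.14). Of 11 airway secretory and basal cell genes none had enough counts, and the secretory markers SCGB1A1 and BPIFA1 were at 0 in all libraries. In control libraries 8 of the 11 were at 0. Their sum was 1.06 to 1.69 CPM in KO and 0 to 0.345 CPM in control libraries. Of 8 choroid plexus and ependymal genes, 4 were tested, 3 of them through the KO libraries alone, and S100B (1.49 ± 0.36) and AQP1 (1.63 ± 0.41) were higher, with sums of 4.23 to 5.49 CPM in KO and 1.78 to 4.04 CPM in control libraries. TTR, the abundant transcript of choroid plexus, had 3 counts in KO and 0 in control libraries, where 3 of the 8 genes were at 0. Of 7 leukocyte genes, 2 were tested and both, CD68 (0.61 ± 0.14) and CD14 (1.23 ± 0.30), were higher, with sums of 8.12 to 8.99 CPM in KO and 4.31 to 5.97 CPM in control libraries. CD14 did not pass the filter in each arm by itself, and of all 998 such tested genes 600 were called higher. The pan-leukocyte marker PTPRC had 7 counts in KO and 2 in control libraries. HEK293 markers moved in both directions, NEFM (0.57 ± 0.066), NEFL (0.38 ± 0.054) and CDH2 (0.29 ± 0.056) higher and VIM (-0.30 ± 0.046) and WT1 (-0.41 ± 0.089) lower. The part of such markers in the rise of the cilium genes was not tested.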

How the data were processed

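RNA of 8 HEK293 samples was made into stranded TruSeq mRNA libraries and read as 80 bp pairs, per the labels' protocols. The authors deposited raw counts per gene, 1 table per library, with no normalisation, and reads were counted with featureCounts on hg38, per the submitters' processing notes. Aligner, annotation release and strand setting: not given in the sources used here. Of 28395 entries, 459 without a gene ID (0.0284 to 0.0425% of counts) were left out, and 27744 of 27936 gene IDs received symbols from RefSeq (GRCh38.p14). All 48 members were matched, CCDC65 and GAS8 by synonym.

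Genes were kept by filterByExpr (minimum count 10, minimum total 15), which left 14455. KO was compared with control in edgeR 4.0.16 under R 4.3.3 (quasi-likelihood F test, TMM) with the guide number as a term (5 residual degrees of freedom). Contrasts within a guide, between guides and between control lines came from the 4 group means (4 residual degrees of freedom). Adjusted p are Benjamini-Hochberg values over the whole table. The script was checked on simulated data. Rare members were compared by ratios of scaled CPM with exact binomial 95% intervals, which cover counting error only, as PCR copies were not told apart. RPKM used the gene lengths in the deposited tables. Exon overlaps were measured on GENCODE v29. Alternatives were DESeq2 1.42.0 and its size factors, limma-voom 3.58.1, no filter, a filter at 1 CPM in 4 or more libraries, no guide term, a replicate block, each guide alone, thinning to the smallest library and leaving out each library.

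Members and lists were chosen with earlier results of these data known. Genes named were FOXJ1, the other 5 regulators, in each other role group the 2 most abundant members and each called member with at least 2-fold change, rare members with at least 10 counts, and up to 3 called genes per direction of each other list. DNAI2, TEKT1, DNAH2, DNAAF2, AK7, CDC20B, DEUP1, TTR, PTPRC and genes listed at 0 lie outside that rule and were named after their values were seen.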

Additional observations from a re-analysis of the deposited data

Results flagged for a closer look

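Among the 4 libraries of an arm, 1 control library stood apart from the other 3 for 7 members. Chance flags about 1 in 20 groups of normally distributed values, a rate that does not hold for rare genes with mostly 0 counts. MCIDAS was lowest in control sgRNA1 replicate 1, at 7.43 CPM, which is still above all KO libraries. CFAP53 was lowest in control sgRNA1 replicate 2, the shallowest library, at 0.538 CPM, and CCDC65 was at 0 CPM in that library. For rare genes a single count or a pair of counts makes a library stand apart. GMNC and ROPN1L had their 1 control count each in control sgRNA2 replicate 1, at 0.0690 CPM. DNAAF1 had both of its control counts there, at 0.138 CPM. DNAH9 had its 1 control count in control sgRNA1 replicate 1, at 0.0807 CPM.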

How the results depend on the processing

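Of 34 members, 23 were called higher and 4 lower in KO. Scaling, test, guide term and a replicate block changed these counts by less than 1.5 times, and 20 were called higher within each guide number. Over all 14455 tested genes, 3515 were called higher within sgRNA1 and 3717 within sgRNA2. Replicate numbers did not pair the libraries, with correlations of same-numbered deviations of -0.12 to 0.0271, and with a replicate block 23 members were called higher and 4 lower, and of the other motile cilium genes 40 higher and 1 lower. Of all settings, thinning lowered the counts of higher calls most. Thinned to the smallest library, 22 members were tested, 10 were called higher and 2 lower, and of the other motile cilium genes 22 were higher and 0 lower. Of the 12550 genes tested at that depth, 3277 were higher and 3360 lower. Of the 23 members called higher with all counts, 13 were then tested and 10 were called. With genes that passed the filter in each arm by itself, a setting added after seeing the data, 14 members and 24 other motile cilium genes were higher. Within sgRNA2, 0 other motile cilium genes were lower, and leaving out single libraries gave 1 to 2.

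For the fitted changes of 30 named members, 494 of 527 alternative values kept direction and call, 22 lost the call, 3 gained it and 8 changed sign. The 8 belonged to genes that were not called. CCNO had -0.0796 within sgRNA1 (adjusted p = 0.788), -0.30 thinned, and -0.0582 to 0.12 without single libraries. RSPH4A had -0.0535 thinned. SPAG16 had -0.0254 within sgRNA1 and -0.0236 to 0.23 without single libraries, and STK36 had -0.0331 to 0.0598. Of 96 alternative CPM ratios of 11 rare members, 3 crossed 1. The DNAH5 ratio was 0.958 without KO sgRNA2 replicate 2 and 0.977 without control sgRNA2 replicate 2, and the TEKT2 ratio was 0.874 without control sgRNA1 replicate 1. The cause was not tested.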
